A study of Mus musculus with 16 samples.

Results

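Of 53 genes written as cell cycle genes, 47 were measured by a probe set that carries their symbol alone, among 18820 genes measured that way in all. The members are known drivers and markers of dividing cells; the rule that lists them by name uses no measured value, but the list was written with earlier results of these data known. Where a gene had several such probe sets, the one with the highest mean over all arrays stood for it. They fall into 6 measured regulators of entry into the cycle (called G1 genes here), 18 genes of DNA synthesis (S phase genes) and 23 genes of cell division (mitosis genes). The 6 without a value are Ccne2, Tyms, Kif20a, Nusap1 and Foxm1, whose probe sets also carry the symbol of a second gene, and Ccnb1, for which no probe set was listed under that symbol.

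Whole-liver RNA of 16 male pups, each 7 days old, was hybridised to 1-colour arrays, with 1 array per mouse and 4 mice per genotype, on a mixed C57/BL6 - SV129Ola background. The TRAF2/Casp-8/IKKβLPC-KO mice (IKKβ triple KO) had floxed Traf2, Caspase-8 and Ikkβ deleted by the alfp-Cre transgene, which acts in liver parenchymal cells. The TRAF2/Casp-8LPC-KO/RIPK3-/- mice (RIPK3 triple KO) had floxed Traf2 and Caspase-8 deleted in those cells and lacked Ripk3 in every cell of the body. The TRAF2/Casp-8LPC-KO mice (TRAF2/Casp-8 KO) had the parenchymal deletion of Traf2 and Caspase-8 alone, so all 3 knockout genotypes share that deletion and the Cre transgene. The WT mice were littermates that carried the floxed alleles without Cre. Other cells of the liver, such as Kupffer cells and blood precursors, keep the floxed genes in every genotype. In whole liver, fewer cells of a type and less RNA per cell cannot be told apart.

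A cell enters the cycle when D-type cyclins with CDK4, then cyclin E with CDK2, phosphorylate the retinoblastoma protein and free the E2F transcription factors. E2F factors switch on the genes of DNA replication, which are used in S phase. Genes of chromosome segregation and cytokinesis are switched on later, in G2 and mitosis, by the B-MYB and FOXM1 proteins with the MuvB complex, which binds a promoter element called the cell cycle genes homology region (CHR). Hepatocytes of the newborn mouse still divide as the liver grows, and blood precursors left from fetal blood formation divide there too.

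All values are log2 signals of the authors' normalised table. The signals of Casp8, Ripk3 and Ikbkb were low where the labels place their deletion. Casp8 read 8.50 to 9.11 in the 12 knockout arrays, against 9.76 to 10.1 in WT. Ripk3 read 4.07 to 4.40 in RIPK3 triple KO, against 5.62 to 6.42 in the other 12 arrays, and Ikbkb read 7.07 to 7.30 in IKKβ triple KO, against 7.50 to 8.06. Traf2 went the other way, at 6.87 to 7.53 in the 12 knockout arrays, against 6.21 to 6.40 in WT; the labels do not say whether its probe set lies in the deleted exons. The hepatocyte gene Alb read 12.9 to 13.5 on every array. Array names hold a letter and a number whose meaning is not stated, in combinations that no genotypes share. IKKβ triple KO and RIPK3 triple KO share neither letter nor number, and nor do TRAF2/Casp-8 KO and WT. Every other pair of genotypes differs in either the letters or the number. What these stand for and genotype therefore cannot be told apart in any comparison.

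One array stands apart in the cell cycle genes. IKKβ triple KO replicate 1 was the lowest of its 4 arrays in 47 of 47 members, whereas it was the lowest in 29.6% of all genes. Its Ikbkb signal, 7.30, was low like those of the other 3 arrays of its genotype. IKKβ triple KO replicates 2, 3 and 4 lay above every RIPK3 triple KO array in 46 of 47 members (8.48% of all genes). Replicate 1 lay at or below the highest RIPK3 triple KO array in 40 of 47 (85.1%), close to the 79.2% of all genes. A second array departs in mitosis genes: TRAF2/Casp-8 KO replicate 4, the one array with another name prefix, was the highest of its 4 in 23 of 23 mitosis genes, but in 7 of 18 S phase genes. For the members, some counts of calls and role medians that involve these genotypes are given both with and without these arrays. Wider gene lists and cell markers are given with all arrays only.

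**Figure D1:**
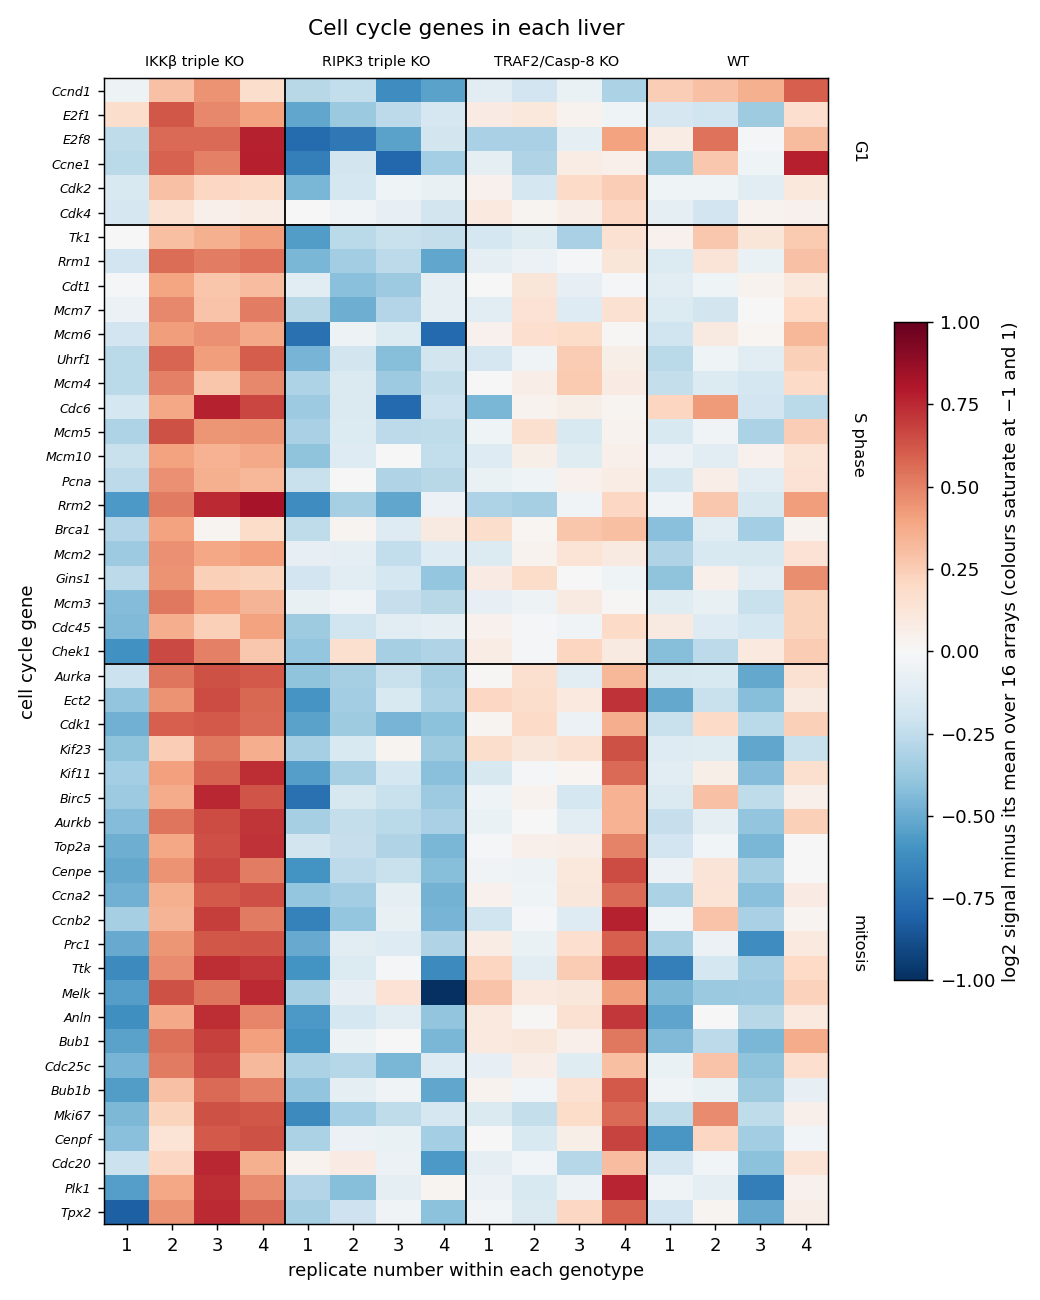
Log2 signal of each of the 47 measured cell cycle genes (rows, by role and then by p of the 4-genotype test) in each of 16 livers (columns, by genotype and replicate number), minus the gene's mean over the 16 arrays. Columns 2 to 4 of IKKβ triple KO are red in nearly every row, its column 1 is mostly blue (not in E2f1), the RIPK3 triple KO columns are mostly blue, and TRAF2/Casp-8 KO replicate 4 is red in the mitosis rows.

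Cell cycle genes were highest on average in IKKβ triple KO livers and lowest in RIPK3 triple KO livers. IKKβ triple KO had the highest genotype mean in 43 of 47 members, against 20.6% of all genes, and RIPK3 triple KO the lowest in 45 of 47, against 28.2% of all genes. The mean over the 6 G1 genes was 8.21 ± 0.26 in IKKβ triple KO (SD, n = 4 in each genotype), 7.60 ± 0.093 in RIPK3 triple KO, 7.93 ± 0.10 in TRAF2/Casp-8 KO and 8.04 ± 0.18 in WT. The mean over the 18 S phase genes was 7.68 ± 0.35, 7.17 ± 0.077, 7.44 ± 0.068 and 7.41 ± 0.16 in the same order of genotypes. The mean over the 23 mitosis genes was 7.71 ± 0.52 in IKKβ triple KO, 7.12 ± 0.14 in RIPK3 triple KO, 7.57 ± 0.27 in TRAF2/Casp-8 KO and 7.28 ± 0.23 in WT. WT lay above TRAF2/Casp-8 KO in the G1 mean and below it in the S phase and mitosis means, with ranges that overlapped in all 3 roles. Without IKKβ triple KO replicate 1, its role means were 8.34 ± 0.022 for G1, 7.86 ± 0.040 for S phase and 7.96 ± 0.13 for mitosis genes (SD, n = 3), and it had the highest mean in 45 of 47 members, against 23.6% of all genes. Without TRAF2/Casp-8 KO replicate 4, the mitosis mean of TRAF2/Casp-8 KO was 7.44 ± 0.020 (SD, n = 3), and RIPK3 triple KO had the lowest mean in 44 of 47 members, against 27.9% of all genes.

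**Figure D2:**
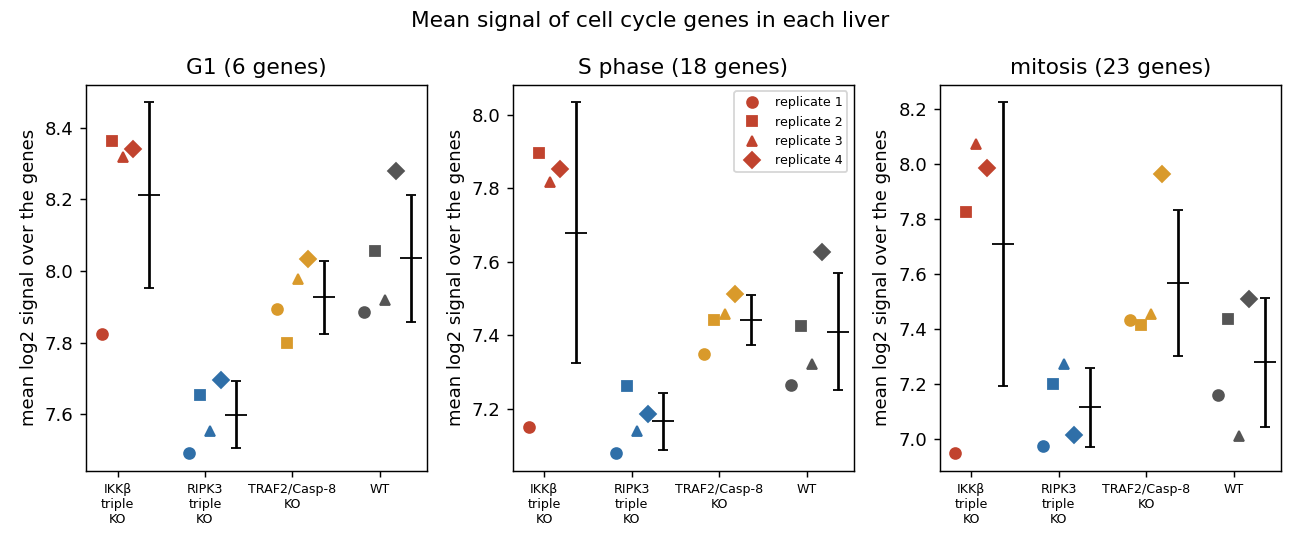
Mean log2 signal over the G1, S phase and mitosis genes (panels) in each liver, by genotype; each symbol is 1 liver (its shape gives the replicate number), and the bar to its right is the genotype mean with its SD. IKKβ triple KO replicate 1 lies at 7.15 for S phase genes, against 7.82 to 7.90 for the other 3 arrays of its genotype, and TRAF2/Casp-8 KO replicate 4 lies at 7.97 for mitosis genes, against 7.42 to 7.46.

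The spread between livers of 1 genotype was wide for mitosis genes. The median residual SD within genotypes was 0.34 for mitosis genes, 0.23 for S phase genes and 0.17 for G1 genes, against 0.17 for all genes. The mitosis median lay above that of 94.7% of all genes, so a mitosis gene needed a larger difference to pass the test than most genes did. The arrays that stand apart are included here. The SD of the mitosis mean was 0.52 in IKKβ triple KO and 0.13 without its replicate 1. In TRAF2/Casp-8 KO it was 0.27, and 0.020 without its replicate 4. It was 0.14 in RIPK3 triple KO and 0.23 in WT.

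The comparison of IKKβ triple KO with RIPK3 triple KO sets IKKβ loss in parenchymal cells against RIPK3 loss in every cell. Both genotypes share the parenchymal deletion of Traf2 and Caspase-8. Here 7 of 47 members passed the threshold (limma, Benjamini-Hochberg adjusted p under 0.05 over all probe sets), all higher in IKKβ triple KO, where 1.59% of all 35556 probe sets passed and 0.503% passed as higher. They were 3 G1 genes (Ccnd1, E2f1 and E2f8) and 4 S phase genes (Tk1, Rrm1, Cdt1 and Mcm7), and 0 of 23 mitosis genes. All 47 differences were positive, with medians of 0.70 for G1, 0.50 for S phase and 0.61 for mitosis genes, against −0.0082 over all genes, and 39 members had an unadjusted p under 0.05 as higher, against 7.37% of all probe sets. The smallest adjusted p of a mitosis gene was 0.060, for Aurka. The count of 7 fell to 1 without IKKβ triple KO replicate 2 or 3, to 2 without its replicate 4, and to 3, 2 and 2 without RIPK3 triple KO replicates 1, 2 and 3.

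Without IKKβ triple KO replicate 1, the array that stands apart, 38 of 47 members passed as higher than in RIPK3 triple KO, where 2.64% of all probe sets passed. These were 4 of 6 G1 genes, 16 of 18 S phase genes and 18 of 23 mitosis genes, with medians of 0.78, 0.68 and 0.86. Cdk1 then differed 2.05-fold (log2 1.03, limma adjusted p = 0.0016) and Rrm1 1.91-fold (0.93, limma adjusted p = 0.00050). The 9 members that still did not pass were Cdk2, Cdk4, Gins1, Brca1, Mki67, Plk1, Cdc20, Kif23 and Cenpf. That array was set aside because its values had been seen, so these counts describe the other 15 livers.

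Among G1 genes, Ccnd1, which encodes the growth-factor-induced cyclin D1, was called in 3 comparisons. It read 9.14, 9.49, 9.65 and 9.37 in IKKβ triple KO, 8.91, 8.95, 8.58 and 8.66 in RIPK3 triple KO, 9.09, 9.0, 9.13 and 8.88 in TRAF2/Casp-8 KO and 9.44, 9.49, 9.55 and 9.80 in WT. It is the one member whose mean was highest in WT, and neither the TRAF2/Casp-8 KO nor the RIPK3 triple KO arrays overlapped WT. Ccnd1 was 1.46-fold lower in TRAF2/Casp-8 KO than in WT (log2 −0.54 ± 0.12 SE, limma adjusted p = 0.028), a call lost without TRAF2/Casp-8 KO replicate 1, 2 or 4 or WT replicate 2, 3 or 4. In RIPK3 triple KO it was 1.74-fold lower than in WT (log2 −0.79 ± 0.12, limma adjusted p = 0.0024). In IKKβ triple KO it was 1.56-fold higher than in RIPK3 triple KO (log2 0.64 ± 0.12, limma adjusted p = 0.017), with no overlap, a call lost without IKKβ triple KO replicate 2 or 3 or RIPK3 triple KO replicate 3. Against TRAF2/Casp-8 KO the IKKβ triple KO arrays did not overlap either, by a gap between 9.14 and 9.13. The difference of 0.39 did not pass (limma adjusted p = 0.24).

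E2f1, the E2F factor that activates S phase genes, read 6.0, 6.44, 6.30 and 6.22 in IKKβ triple KO, 5.30, 5.45, 5.55 and 5.65 in RIPK3 triple KO, 5.90, 5.93, 5.86 and 5.78 in TRAF2/Casp-8 KO and 5.65, 5.62, 5.47 and 5.99 in WT. Every IKKβ triple KO array, replicate 1 included, lay above all 12 arrays of the other genotypes, but replicate 1 (6.0) only just above WT replicate 4 (5.99). E2f1 was 1.69-fold higher in IKKβ triple KO than in RIPK3 triple KO (log2 0.75 ± 0.12, limma adjusted p = 0.0053). Its difference of IKKβ triple KO from WT, 0.56 (limma adjusted p = 0.21), and from TRAF2/Casp-8 KO, 0.37 (0.24), did not pass.

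E2f8 encodes an E2F factor that represses E2F targets and serves the polyploid cycles of hepatocytes. It read 7.05, 7.87, 7.87 and 8.08 in IKKβ triple KO, 6.54, 6.59, 6.78 and 7.12 in RIPK3 triple KO, 6.99, 6.99, 7.21 and 7.71 in TRAF2/Casp-8 KO and 7.38, 7.86, 7.29 and 7.63 in WT. Replicate 1 of IKKβ triple KO overlapped the RIPK3 triple KO arrays. E2f8 was 1.95-fold higher in IKKβ triple KO than in RIPK3 triple KO (log2 0.96 ± 0.22, limma adjusted p = 0.041), a call lost without IKKβ triple KO replicate 2, 3 or 4 or RIPK3 triple KO replicate 1, 2 or 3.

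Ccne1, which encodes cyclin E1, read 6.89, 7.75, 7.66 and 7.94 in IKKβ triple KO, 6.47, 6.98, 6.38 and 6.82 in RIPK3 triple KO, 7.07, 6.86, 7.24 and 7.21 in TRAF2/Casp-8 KO and 6.81, 7.43, 7.12 and 7.94 in WT. WT spread over more than 1 log2 unit, and the difference of IKKβ triple KO from RIPK3 triple KO, 0.90 ± 0.24, did not pass (limma adjusted p = 0.085). The kinase genes Cdk2 and Cdk4 had the smallest differences among G1 genes, 0.32 and 0.10 in that comparison.

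**Figure D3:**
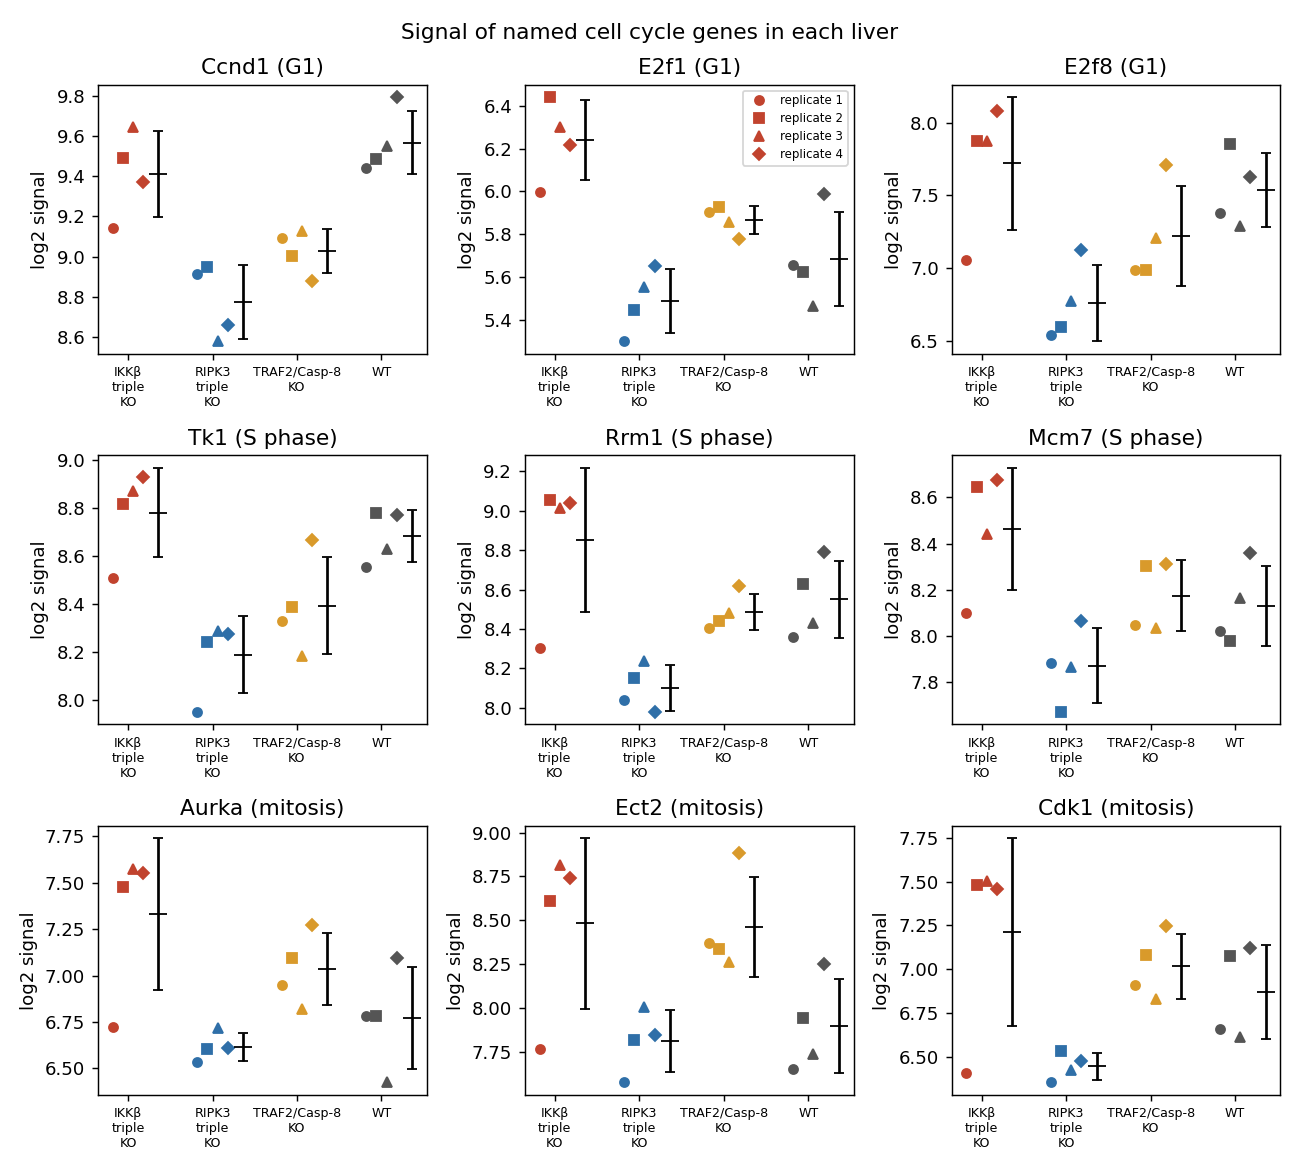
Log2 signal of 3 G1, 3 S phase and 3 mitosis genes (panels) in each liver, by genotype; each symbol is 1 liver (its shape gives the replicate number), and the bar to its right is the genotype mean with its SD. In Rrm1, Aurka and Cdk1 the circle of IKKβ triple KO, its replicate 1, lies far below the other 3, and in Ccnd1 the WT livers lie at 9.44 to 9.80, above every TRAF2/Casp-8 KO liver.

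Among S phase genes, Tk1, the thymidine kinase of the salvage pathway, read 8.51, 8.81, 8.87 and 8.93 in IKKβ triple KO, 7.95, 8.24, 8.29 and 8.27 in RIPK3 triple KO, 8.33, 8.39, 8.18 and 8.67 in TRAF2/Casp-8 KO and 8.56, 8.78, 8.63 and 8.77 in WT. The RIPK3 triple KO arrays lay below all IKKβ triple KO and all WT arrays. Tk1 was 1.51-fold higher in IKKβ triple KO than in RIPK3 triple KO (log2 0.59 ± 0.12, limma adjusted p = 0.024). It was 1.41-fold lower in RIPK3 triple KO than in WT (log2 −0.49 ± 0.12, limma adjusted p = 0.045), a call lost without any RIPK3 triple KO array or without WT replicate 2, 3 or 4. A second Tk1 probe set gave 0.37 and −0.30 for these differences.

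Rrm1, the large subunit of ribonucleotide reductase, read 8.30, 9.06, 9.01 and 9.04 in IKKβ triple KO, 8.04, 8.15, 8.24 and 7.98 in RIPK3 triple KO, 8.40, 8.44, 8.48 and 8.62 in TRAF2/Casp-8 KO and 8.36, 8.63, 8.43 and 8.79 in WT. The RIPK3 triple KO arrays lay below every other array. Rrm1 was 1.68-fold higher in IKKβ triple KO than in RIPK3 triple KO (log2 0.75 ± 0.15, limma adjusted p = 0.023).

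Cdt1, which loads the MCM helicase at replication origins, read 6.68, 7.09, 6.97 and 7.00 in IKKβ triple KO, 6.59, 6.28, 6.33 and 6.60 in RIPK3 triple KO, 6.69, 6.81, 6.61 and 6.67 in TRAF2/Casp-8 KO and 6.59, 6.65, 6.73 and 6.80 in WT. The RIPK3 triple KO arrays lay below all IKKβ triple KO and all TRAF2/Casp-8 KO arrays, the latter by a gap between 6.60 and 6.61. Cdt1 was 1.40-fold higher in IKKβ triple KO than in RIPK3 triple KO (log2 0.49 ± 0.10, limma adjusted p = 0.028).

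Mcm7, a subunit of that helicase, read 8.10, 8.64, 8.44 and 8.67 in IKKβ triple KO, 7.88, 7.67, 7.86 and 8.07 in RIPK3 triple KO, 8.05, 8.30, 8.03 and 8.31 in TRAF2/Casp-8 KO and 8.02, 7.98, 8.16 and 8.36 in WT. Its IKKβ triple KO and RIPK3 triple KO arrays did not overlap, by a gap between 8.10 and 8.07. Mcm7 was 1.51-fold higher in IKKβ triple KO than in RIPK3 triple KO (log2 0.59 ± 0.13, limma adjusted p = 0.039). The calls of Rrm1, Cdt1, Mcm7 and Tk1 in this comparison were each lost without IKKβ triple KO replicate 2, 3 or 4. They were also lost without RIPK3 triple KO replicate 1, 2 or 3 for Mcm7 and Tk1, without its replicate 1, 2 or 4 for Rrm1 and without its replicate 2 or 3 for Cdt1.

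The other 14 S phase genes did not pass in any comparison in the model of 4 genotypes over all probe sets and arrays. Between IKKβ triple KO and RIPK3 triple KO, Mcm6 passed after a second quantile normalisation, Mcm6, Cdc6 and Uhrf1 with 1 probe set per gene, these and Mcm4 with array weights, and Mcm6 and Uhrf1 with a replicate block. Their differences of IKKβ triple KO from RIPK3 triple KO lay between 0.15, in the DNA repair gene Brca1, and 0.79, in Cdc6, which loads the helicase together with Cdt1. Mcm6, another helicase subunit, read 8.34, 8.95, 8.98 and 8.91 in IKKβ triple KO, 7.78, 8.48, 8.39 and 7.75 in RIPK3 triple KO, 8.57, 8.70, 8.71 and 8.54 in TRAF2/Casp-8 KO and 8.33, 8.62, 8.55 and 8.86 in WT. Its difference of IKKβ triple KO from RIPK3 triple KO was 0.69 (limma adjusted p = 0.075), and its RIPK3 triple KO arrays formed a high and a low pair. Pcna, the sliding clamp of the replication fork, was measured by a pair of probe sets that gave 0.42 and 0.39.

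The promoters of the 4 S phase genes named above are shown because these genes passed in the same comparison, with RefSeq start sites on GRCm38.p6. Each window runs from 250 bases before the start to 50 bases after it, 5′ to 3′ on the gene's strand, and capitals mark matches to 3 motifs searched on both strands. The motifs are TTTNNCGC (E2F-like), TTTGAA (CHR) and CCAAT, the box bound by NF-Y. The windows are chr11:117825965-117826264 (minus strand) for Tk1, chr7:102441445-102441744 (plus) for Rrm1, chr8:122567765-122568064 (plus) for Cdt1 and chr5:138171834-138172133 (minus, the first of 2 listed) for Mcm7.
Tk1: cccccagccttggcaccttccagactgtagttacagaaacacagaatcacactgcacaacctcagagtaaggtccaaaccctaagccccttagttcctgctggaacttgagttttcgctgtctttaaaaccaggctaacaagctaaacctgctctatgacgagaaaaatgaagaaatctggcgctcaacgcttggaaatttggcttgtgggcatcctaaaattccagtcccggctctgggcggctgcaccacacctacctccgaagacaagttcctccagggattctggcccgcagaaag
Rrm1: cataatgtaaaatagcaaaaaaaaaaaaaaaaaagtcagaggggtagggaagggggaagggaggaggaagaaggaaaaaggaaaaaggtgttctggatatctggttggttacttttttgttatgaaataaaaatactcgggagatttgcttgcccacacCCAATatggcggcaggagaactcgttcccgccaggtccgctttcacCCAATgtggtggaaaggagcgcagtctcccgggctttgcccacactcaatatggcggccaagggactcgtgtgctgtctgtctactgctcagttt
Cdt1: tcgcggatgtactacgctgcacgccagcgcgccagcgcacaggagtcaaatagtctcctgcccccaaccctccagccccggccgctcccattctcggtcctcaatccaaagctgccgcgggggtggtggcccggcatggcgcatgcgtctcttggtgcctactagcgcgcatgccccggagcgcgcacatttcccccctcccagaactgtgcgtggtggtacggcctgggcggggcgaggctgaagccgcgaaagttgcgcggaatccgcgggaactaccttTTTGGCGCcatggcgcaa
Mcm7: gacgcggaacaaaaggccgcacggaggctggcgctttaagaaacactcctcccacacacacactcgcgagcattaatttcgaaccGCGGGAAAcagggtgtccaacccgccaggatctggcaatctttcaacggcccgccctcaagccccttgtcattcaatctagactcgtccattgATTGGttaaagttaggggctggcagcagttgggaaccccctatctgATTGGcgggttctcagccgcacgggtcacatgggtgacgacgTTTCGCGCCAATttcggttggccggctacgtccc
The Cdt1 window holds an E2F-like match that starts 33 bases after the start site. The Mcm7 window holds 2, of which the one at base 17 overlaps a CCAAT match at its last letter. The Tk1 window holds none of the 3 motifs.

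Of 17 S phase members with a promoter listed, 8 (47.1%) held an E2F-like match, against 5.27% of 27025 promoters and 1 of 21 mitosis members. The CHR letters stood in 2 of the 17 S phase windows. A match describes these letters in these windows, and says nothing of binding.

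No mitosis gene passed in any comparison in the model of 4 genotypes over all probe sets and arrays. Between IKKβ triple KO and RIPK3 triple KO, Aurka passed without the dimmest probe sets, Aurka and Cdk1 with 1 probe set per gene or with array weights, and Cdk1 with a replicate block. The 4 with the smallest p of the 4-genotype test are given here. Aurka, the centrosomal mitotic kinase Aurora A, read 6.72, 7.48, 7.57 and 7.55 in IKKβ triple KO, 6.53, 6.60, 6.72 and 6.61 in RIPK3 triple KO, 6.95, 7.10, 6.82 and 7.27 in TRAF2/Casp-8 KO and 6.78, 6.78, 6.42 and 7.09 in WT. The RIPK3 triple KO arrays lay below all IKKβ triple KO and all TRAF2/Casp-8 KO arrays, with replicate 1 of IKKβ triple KO just above them. Aurka differed by 0.72 ± 0.18 between IKKβ triple KO and RIPK3 triple KO (limma adjusted p = 0.060) and by −0.42 ± 0.18 between RIPK3 triple KO and TRAF2/Casp-8 KO (0.45).

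Ect2, the exchange factor that activates RhoA for cytokinesis, read 7.76, 8.61, 8.82 and 8.74 in IKKβ triple KO, 7.57, 7.82, 8.01 and 7.85 in RIPK3 triple KO, 8.37, 8.34, 8.26 and 8.89 in TRAF2/Casp-8 KO and 7.65, 7.94, 7.74 and 8.25 in WT. All TRAF2/Casp-8 KO arrays lay above all RIPK3 triple KO and all WT arrays, the latter by a gap between 8.26 and 8.25. Its difference of TRAF2/Casp-8 KO from WT, 0.57 ± 0.21, did not pass (limma adjusted p = 0.22), nor did that of RIPK3 triple KO from TRAF2/Casp-8 KO, −0.65 ± 0.21 (0.30).

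Cdk1, the kinase that drives entry into mitosis, read 6.41, 7.48, 7.50 and 7.46 in IKKβ triple KO, 6.35, 6.53, 6.42 and 6.48 in RIPK3 triple KO, 6.91, 7.08, 6.83 and 7.25 in TRAF2/Casp-8 KO and 6.66, 7.08, 6.61 and 7.12 in WT. Replicate 1 of IKKβ triple KO lay among the RIPK3 triple KO arrays, more than 1 log2 unit below the other 3 of its genotype. The difference of IKKβ triple KO from RIPK3 triple KO was 0.77 ± 0.21 (limma adjusted p = 0.088).

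Kif23, a kinesin of the central spindle, read 6.89, 7.55, 7.82 and 7.66 in IKKβ triple KO, 6.97, 7.15, 7.33 and 6.94 in RIPK3 triple KO, 7.48, 7.41, 7.45 and 7.94 in TRAF2/Casp-8 KO and 7.17, 7.18, 6.78 and 7.08 in WT. The TRAF2/Casp-8 KO arrays lay above all RIPK3 triple KO and all WT arrays, by differences of 0.52 ± 0.18 from WT (limma adjusted p = 0.18) and, for RIPK3 triple KO minus TRAF2/Casp-8 KO, −0.47 ± 0.18 (0.38).

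In the other 19 mitosis genes, differences of IKKβ triple KO from RIPK3 triple KO lay between 0.40 in Cdc20, an activator of the anaphase-promoting complex, and 0.72 in Birc5, which encodes the chromosomal passenger survivin. Mki67, which encodes the proliferation marker Ki-67, read 9.08, 9.76, 10.17 and 10.16 in IKKβ triple KO, 8.90, 9.19, 9.28 and 9.37 in RIPK3 triple KO, 9.40, 9.30, 9.72 and 10.10 in TRAF2/Casp-8 KO and 9.28, 10.01, 9.28 and 9.58 in WT. Further probe sets of Kif11 (mean 4.24), Prc1 (2.72) and Top2a (2.56) were dim. They gave 0.37, −0.13 and 0.20 for IKKβ triple KO minus RIPK3 triple KO, in place of 0.72, 0.56 and 0.61. Another Top2a probe set was not dim, with a mean of 5.70 near the median of all genes, 5.71. It gave 0.028 in place of 0.61, and for RIPK3 triple KO minus WT 0.14 in place of −0.12.

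The promoters of the 4 mitosis genes above are shown for comparison with those of the S phase genes, with the same build, windows and capitals. They are chr2:172370521-172370820 (minus strand) for Aurka, chr3:27153829-27154128 (minus, the first of 2 listed) for Ect2, chr10:69352863-69353162 (minus) for Cdk1 and chr9:61946750-61947049 (minus) for Kif23.
Aurka: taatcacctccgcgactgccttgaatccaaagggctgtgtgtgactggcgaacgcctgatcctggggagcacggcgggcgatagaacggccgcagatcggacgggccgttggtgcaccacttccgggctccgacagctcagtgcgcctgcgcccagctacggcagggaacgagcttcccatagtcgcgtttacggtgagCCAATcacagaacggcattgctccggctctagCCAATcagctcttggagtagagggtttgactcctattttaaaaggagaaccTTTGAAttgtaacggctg
Ect2: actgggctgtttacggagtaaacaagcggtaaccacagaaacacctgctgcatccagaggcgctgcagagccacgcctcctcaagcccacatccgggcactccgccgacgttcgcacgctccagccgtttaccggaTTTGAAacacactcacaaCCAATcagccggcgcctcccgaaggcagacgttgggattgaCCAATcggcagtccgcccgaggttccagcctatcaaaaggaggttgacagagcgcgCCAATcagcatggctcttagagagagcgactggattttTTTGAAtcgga
Cdk1: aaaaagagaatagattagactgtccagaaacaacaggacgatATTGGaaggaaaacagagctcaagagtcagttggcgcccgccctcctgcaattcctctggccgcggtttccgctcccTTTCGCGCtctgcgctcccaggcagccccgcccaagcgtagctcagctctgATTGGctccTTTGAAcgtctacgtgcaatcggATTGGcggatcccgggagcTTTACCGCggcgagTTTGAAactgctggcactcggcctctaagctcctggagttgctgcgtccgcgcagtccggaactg
Kif23: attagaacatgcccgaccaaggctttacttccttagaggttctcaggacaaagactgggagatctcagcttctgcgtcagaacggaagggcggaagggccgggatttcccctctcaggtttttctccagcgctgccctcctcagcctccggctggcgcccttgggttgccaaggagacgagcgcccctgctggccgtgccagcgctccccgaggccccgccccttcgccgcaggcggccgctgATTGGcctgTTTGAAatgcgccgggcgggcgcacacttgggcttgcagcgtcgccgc
All 4 windows hold the CHR letters TTTGAA and a CCAAT match. In Kif23 the CHR match starts 3 bases after the start site and the CCAAT match, on the opposite strand, just before it. Cdk1 alone among the mitosis members also holds E2F-like matches.

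Of 21 mitosis members with a promoter listed, 15 (71.4%) held the CHR letters, against 18.1% of all promoters and 2 of 17 S phase members. The CHR match started within 50 bases of the start site in 14 of the 21 (66.7%), against 4.92% of all promoters. CCAAT stood in 81.0% of mitosis and 70.6% of S phase windows, against 37.9% of all.

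RIPK3 triple KO was next set against TRAF2/Casp-8 KO, for the added loss of RIPK3. All 47 members were lower in RIPK3 triple KO, and 0 passed the threshold, where 0.264% of all probe sets passed. Medians were −0.32 for G1, −0.26 for S phase and −0.46 for mitosis genes, against −0.0018 over all genes. By limma, 17 members had an unadjusted p under 0.05 as lower, against 5.25% of all probe sets, and the smallest adjusted p was 0.27, for E2f1. In 23 of 47 members every RIPK3 triple KO array lay below every TRAF2/Casp-8 KO array, against 3.62% of all genes. These were 2 G1 genes (Cdk4 and E2f1), 7 S phase genes and 14 mitosis genes, among them Aurkb, Top2a and Ccna2. Without TRAF2/Casp-8 KO replicate 4 the mitosis median was −0.32, and 0 members passed without any single array of these genotypes.

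**Figure D4:**
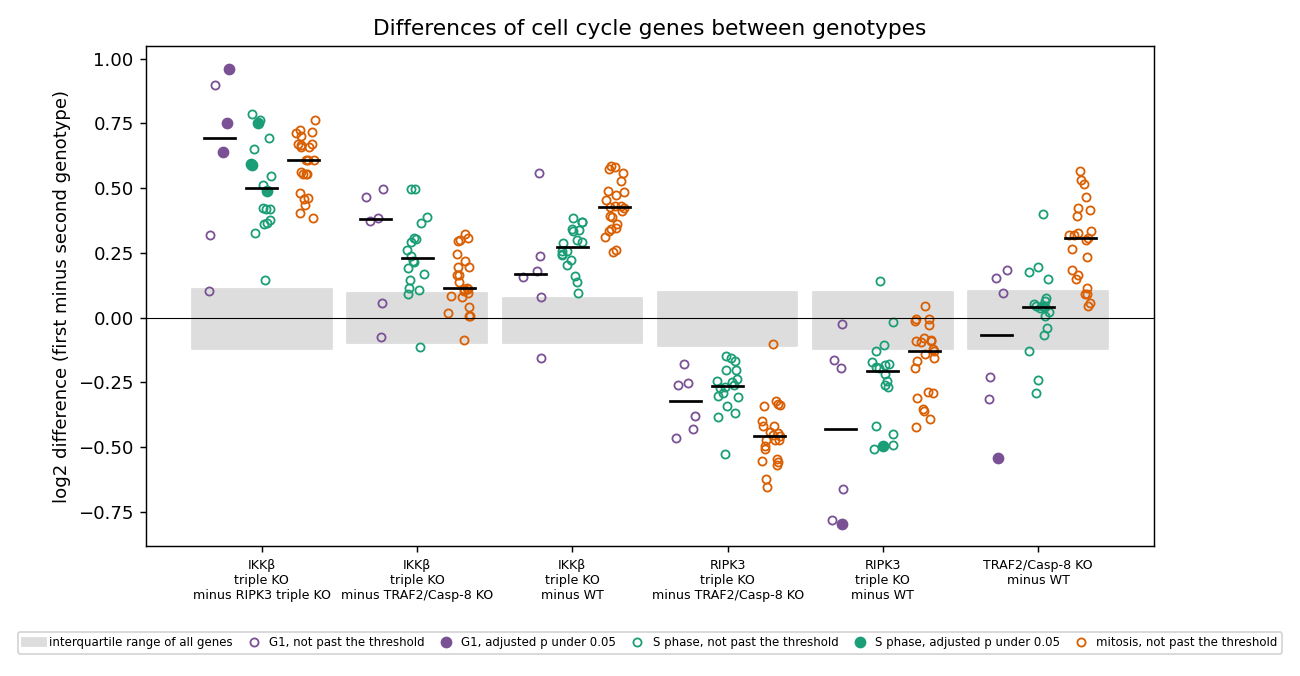
Log2 difference of each measured cell cycle gene in the 6 comparisons between genotypes (first minus second named), by role; filled points passed the threshold (limma adjusted p under 0.05), black lines are role medians, and the grey band is the interquartile range of all genes. All 47 genes lie above 0 for IKKβ triple KO minus RIPK3 triple KO and all 47 lie below 0 for RIPK3 triple KO minus TRAF2/Casp-8 KO, and the mitosis median (0.31) lies above the S phase median (0.043) for TRAF2/Casp-8 KO minus WT.

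For the added loss of IKKβ, IKKβ triple KO was set against TRAF2/Casp-8 KO. Of 47 members, 44 were higher in IKKβ triple KO, and 0 passed, where 0.627% of all probe sets passed. By limma, 8 had an unadjusted p under 0.05 as higher (3.6% of all probe sets), 3 of them G1 and 5 S phase genes. Medians were 0.38 for G1, 0.23 for S phase and 0.11 for mitosis genes. Without IKKβ triple KO replicate 1, Rrm1 passed (1.46-fold, log2 0.55, limma adjusted p = 0.032; 0.602% of all probe sets passed), and the medians were 0.47, 0.40 and 0.41. Without TRAF2/Casp-8 KO replicate 4 as well, an alternative added after the data were seen, 5 members passed (0.357% of all probe sets). They were E2f8 (log2 0.88), Rrm1 (0.59), Rrm2 (0.92), Tk1 (0.57) and Aurkb (0.69), and the mitosis median was 0.54. With 1 array left out, the mitosis median was 0.00093 without IKKβ triple KO replicate 3, 0.035 without its replicate 4, 0.076 and 0.053 without TRAF2/Casp-8 KO replicates 1 and 2, and 0.27 without TRAF2/Casp-8 KO replicate 4.

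TRAF2/Casp-8 KO against WT is the comparison for the parenchymal deletion of both genes, together with the Cre transgene that WT lacks. Of 47 members, 0 passed as higher and 1 as lower, Ccnd1, where 2.25% of all probe sets passed and 0.807% passed as lower. Of 23 mitosis genes, 23 were higher in TRAF2/Casp-8 KO, with a median of 0.31, while 13 of 18 S phase genes were higher, with a median of 0.043, and the G1 median was −0.066. The S phase and G1 medians changed sign with 1 array left out, to −0.014 without WT replicate 1 for S phase, and to 0.0057 without TRAF2/Casp-8 KO replicate 2 and 0.058 without WT replicate 4 for G1. By limma, 2 mitosis genes (Ect2 and Kif23) had an unadjusted p under 0.05 as higher, against 7.04% of all probe sets, and the smallest adjusted p of a mitosis gene was 0.18. Without TRAF2/Casp-8 KO replicate 4 the mitosis median was 0.16, with 18 mitosis genes higher and 5 lower. The G1 median was then −0.11 and the S phase median 0.027, with 10 S phase genes higher and 8 lower. Without WT replicate 3 the mitosis median was 0.19, with 20 mitosis genes higher and 3 lower.

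Against WT, the triple KO genotypes were tested with the same WT arrays, so their values are set side by side. RIPK3 triple KO had 2 members lower, Ccnd1 and Tk1, and 0 higher, where 2.38% of all probe sets passed and 0.894% passed as lower. Of its 47 differences 45 were negative, with medians of −0.43 for G1, −0.21 for S phase and −0.13 for mitosis genes, and the mitosis median ran from −0.21 to −0.048 with 1 array left out, farthest from 0 without WT replicate 3 and nearest without WT replicate 4. IKKβ triple KO had 0 members past the threshold, where 0.0197% of all probe sets passed, with 46 of 47 differences positive. Its medians from WT were 0.17 for G1, 0.27 for S phase and 0.43 for mitosis genes, and 13 members had an unadjusted p under 0.05 as higher by limma, against 2.63% of all probe sets. Without IKKβ triple KO replicate 1, its medians from WT were 0.33, 0.46 and 0.67, 0 members passed (0.0225% of all probe sets), and the smallest adjusted p of a member was 0.10 by limma, for Aurka and Aurkb.

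S phase and mitosis genes did not keep 1 ratio over the livers. For each array, the S phase mean and the mitosis mean were taken relative to their means over the 16 arrays, and the second was taken from the first. The result was 0.20, 0.065, −0.26 and −0.14 in IKKβ triple KO, 0.097, 0.057, −0.14 and 0.17 in RIPK3 triple KO, −0.089, 0.020, −0.0032 and −0.46 in TRAF2/Casp-8 KO and 0.098, −0.016, 0.31 and 0.11 in WT. The lowest value, −0.46, belongs to TRAF2/Casp-8 KO replicate 4, whose S phase mean (7.51) lay close to the 7.46 of replicate 3 while its mitosis mean was 7.97. The highest, 0.31, belongs to WT replicate 3, where mitosis genes were low (7.01). All 4 genotypes overlapped in this difference. IKKβ triple KO replicates 2 to 4 lay above all 12 arrays of the other genotypes in 15 of 18 S phase genes (83.3%) and in 6 of 23 mitosis genes (26.1%), against 1.13% of all genes. Replicate 1 was left out here because its values had been seen. The mitosis mean of TRAF2/Casp-8 KO replicate 4, 7.97, lay between those of IKKβ triple KO replicates 2 (7.83) and 3 (8.07). The next highest of the 12 was WT replicate 4, at 7.51. The counts were not taken without TRAF2/Casp-8 KO replicate 4, so they do not set S phase genes apart from mitosis genes.

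Wider lists of genes from the same pathways were examined too. Of 36 measured genes of DNA replication outside the members, 34 were higher in IKKβ triple KO than in RIPK3 triple KO (median 0.38) and 2 passed, Rpa3 and Rfc3. Of 53 other mitosis genes, 52 were higher (median 0.56) and 1 passed, Spc25. Of 33 cell cycle brakes and further G1 regulators, 27 were higher (median 0.24) and 2 passed, Cks1b and Mybl2. In this comparison 1.59% of all probe sets passed, and 0.503% passed as higher.

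Rpa3, the small subunit of the protein that coats single-stranded DNA, read 6.62, 6.72, 6.99 and 6.99 in IKKβ triple KO, 5.79, 5.90, 5.86 and 5.55 in RIPK3 triple KO, 6.90, 6.54, 6.68 and 6.81 in TRAF2/Casp-8 KO and 6.46, 6.45, 6.64 and 6.48 in WT. RIPK3 triple KO lay apart from all 12 other arrays, and IKKβ triple KO replicate 1 lay with the rest of its genotype. Rpa3 was 2.08-fold higher in IKKβ triple KO than in RIPK3 triple KO (log2 1.06 ± 0.11, limma adjusted p = 0.00015), 1.95-fold lower in RIPK3 triple KO than in TRAF2/Casp-8 KO (−0.96 ± 0.11, 0.00073) and 1.66-fold lower there than in WT (−0.73 ± 0.11, 0.0023). Spc25, a kinetochore protein, differed by 0.74 (limma adjusted p = 0.017) between IKKβ triple KO and RIPK3 triple KO. The clamp loader gene Rfc3 differed by 0.60 (0.030), Cks1b, a CDK subunit, by 0.72 (0.022) and Mybl2, which encodes B-MYB, by 0.74 (0.033).

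Against WT, Cdkn1c, which encodes the CDK inhibitor p57, passed as lower. It read 7.66, 7.39, 7.95 and 7.49 in TRAF2/Casp-8 KO and 7.63, 7.60, 7.95 and 7.41 in RIPK3 triple KO, against 8.10, 8.58, 8.65 and 8.85 in WT, with no overlap. The differences were −0.92 (limma adjusted p = 0.018) and −0.90 (0.022), both against the same WT arrays. In IKKβ triple KO, Cdkn1c read 7.55, 8.06, 8.37 and 7.93 and did not pass against WT (−0.56, limma adjusted p = 0.67). Cdkn1a, which encodes the CDK inhibitor p21, read 8.40, 9.12, 8.07 and 8.44 in IKKβ triple KO, 7.42, 6.98, 7.42 and 7.56 in RIPK3 triple KO, 7.68, 7.64, 7.18 and 7.22 in TRAF2/Casp-8 KO and 7.23, 8.55, 8.81 and 9.17 in WT. Its IKKβ triple KO arrays lay above all arrays of the other 2 knockout genotypes, and WT replicate 1 lay far below the other WT arrays. Its differences of IKKβ triple KO from RIPK3 triple KO, 1.16, and from TRAF2/Casp-8 KO, 1.08, did not pass (limma adjusted p = 0.10 and 0.22). Cit, which encodes citron kinase of the cleavage furrow, was 1.79-fold higher in TRAF2/Casp-8 KO than in WT (log2 0.84 ± 0.16, limma adjusted p = 0.013).

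In TRAF2/Casp-8 KO against WT, 0 of 36 other replication genes passed (median 0.077), 1 of 53 other mitosis genes rose and 0 fell (Cit, median 0.20), and 1 of 33 brakes and G1 regulators fell (Cdkn1c). Here 2.25% of all probe sets passed, and 0.807% passed as lower. A count of 1 in lists of this size is not read as a result about the list. In RIPK3 triple KO against TRAF2/Casp-8 KO (0.264% of all probe sets passed), 1 of 36 other replication genes fell (Rpa3) and 0 of the other mitosis genes or regulators passed. Medians were −0.20, −0.38 and −0.18 for replication genes, mitosis genes and regulators. In RIPK3 triple KO against WT, Rpa3 and Cdkn1c passed as lower and no gene of these lists as higher, where 0.894% of all probe sets passed as lower. In IKKβ triple KO against TRAF2/Casp-8 KO (0.627% of all probe sets passed) and against WT (0.0197%), 0 genes of the 3 lists passed by limma, of 122 measured. At an unadjusted p under 0.05, 5 were higher than in TRAF2/Casp-8 KO, where 3.6% of all probe sets were, and 23 were higher than in WT, where 2.63% were. In each of these comparisons 1 was lower, against 5.58% of all probe sets and 3.64%. Between IKKβ triple KO and RIPK3 triple KO, 84 of the 122 were higher by limma at that unadjusted level and 0 lower, against 7.37% of all probe sets as higher. Between RIPK3 triple KO and TRAF2/Casp-8 KO, 32 were lower and 0 higher, against 5.25% of all probe sets as lower.

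Markers of blood precursors were higher in IKKβ triple KO than in RIPK3 triple KO, as the cell cycle genes were. The mean over 16 measured erythroid markers was 6.88, 6.37, 7.75 and 7.96 in IKKβ triple KO, 5.75, 6.16, 6.09 and 7.58 in RIPK3 triple KO, 6.28, 6.29, 7.09 and 7.64 in TRAF2/Casp-8 KO and 7.02, 7.94, 7.09 and 7.03 in WT. The mean over 17 neutrophil and myeloid precursor markers was 7.31, 7.54, 8.02 and 8.34 in IKKβ triple KO, 6.08, 6.54, 6.76 and 7.52 in RIPK3 triple KO, 7.12, 7.23, 7.59 and 8.31 in TRAF2/Casp-8 KO and 8.90, 7.73, 7.39 and 7.52 in WT. Between IKKβ triple KO and RIPK3 triple KO, 15 of 16 erythroid markers (median 1.02) and 17 of 17 neutrophil and myeloid precursor markers (median 1.11) were higher, and 0 of either passed by limma, with 5 and 12 at an unadjusted p under 0.05 as higher, against 7.37% of all probe sets. Against TRAF2/Casp-8 KO, RIPK3 triple KO was lower in 14 of 16 (median −0.53) and 17 of 17 (−0.96), and against WT in 15 of 16 (−0.98) and 17 of 17 (−1.20). Against WT 1 neutrophil and myeloid precursor marker, Mmp8, passed, where 0.894% of all probe sets passed as lower. IKKβ triple KO was higher than WT in 8 of 16 and 6 of 17. Markers of some other cells differed too, not all in that direction. Of 9 T and NK cell markers, 7 were higher in IKKβ triple KO than in RIPK3 triple KO (median 0.38, 0 called, 5 at an unadjusted p under 0.05 as higher). All 9 were lower in RIPK3 triple KO than in TRAF2/Casp-8 KO (median −0.33), and 1, Gzma, passed there (0.264% of all probe sets) and against WT (2.38%). Of 6 megakaryocyte and mast cell markers, 5 were higher in IKKβ triple KO than in RIPK3 triple KO (median 0.60, 0 called). Of 11 B cell and B precursor markers, 8 were higher in that comparison (median 0.19), and 10 were higher in RIPK3 triple KO than in TRAF2/Casp-8 KO (median 0.16, 0 called). All 8 stellate markers were lower in IKKβ triple KO than in RIPK3 triple KO (median −0.17, 0 called). By limma, 3 of them had an unadjusted p under 0.05 as lower. In the same comparison 5 of 11 Kupffer cell and macrophage markers (median −0.027), 4 of 8 endothelial (0.024) and 7 of 13 hepatocyte markers (0.0016) were higher.

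Of 5 measured biliary markers, 3 passed as higher in TRAF2/Casp-8 KO than in WT (2.25% of all probe sets passed) and 2 as higher in RIPK3 triple KO than in WT (2.38%). As lower, 2 passed in IKKβ triple KO against TRAF2/Casp-8 KO (0.627%), 1 in RIPK3 triple KO against TRAF2/Casp-8 KO (0.264%) and 1 in IKKβ triple KO against RIPK3 triple KO (1.59%). Array signals have no true zero, so no marker can be called absent. The part of these cells in the cell cycle differences was not tested.

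Liver by liver the markers and the cell cycle genes went together in some livers and apart in others. Their association over the 16 arrays was not tested. IKKβ triple KO replicate 4 was high in the erythroid (7.96), neutrophil and myeloid precursor (8.34) and mitosis (7.99) means. RIPK3 triple KO replicate 1 was low in the same means (5.75, 6.08 and 6.98). IKKβ triple KO replicate 2 had the lowest erythroid mean of its genotype, 6.37, with a mitosis mean of 7.83, while replicate 1, with 6.88, had a mitosis mean of 6.95. RIPK3 triple KO replicate 4 had an erythroid mean of 7.58, above the other 3 arrays of its genotype by more than 1 log2 unit, with a mitosis mean of 7.01. WT replicate 1 had the highest neutrophil and myeloid precursor mean of all arrays, 8.90, with a mitosis mean of 7.16. TRAF2/Casp-8 KO replicate 4, high in mitosis genes, was the highest of its genotype in both marker means. The mean over 13 hepatocyte markers lay between 11.90 and 12.27 on all 16 arrays.

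**Figure D5:**
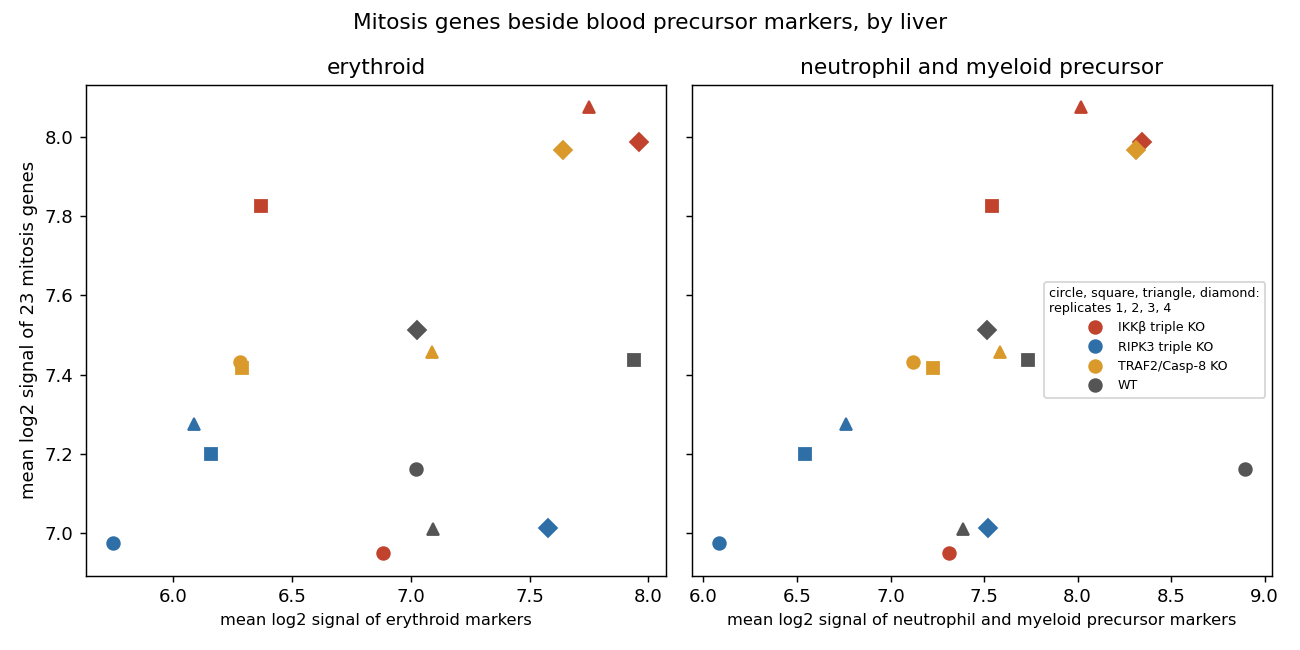
Mean log2 signal of the 23 mitosis genes (vertical) beside that of erythroid markers (left) and of neutrophil and myeloid precursor markers (right), 1 symbol per liver, coloured by genotype and shaped by replicate number. IKKβ triple KO replicate 2 (mitosis 7.83, erythroid 6.37) and RIPK3 triple KO replicate 4 (mitosis 7.01, erythroid 7.58) lie far apart in the left panel. There IKKβ triple KO replicate 4 (mitosis 7.99, erythroid 7.96) is high in both and RIPK3 triple KO replicate 1 (mitosis 6.98, erythroid 5.75) low in both.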

How the data were processed

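The members, their roles and the gene lists were chosen with earlier results of these data known. The authors deposited log2 values made with RMA, per the submitters' processing notes; its version and settings were not stated there. Values ran between 0.89 and 13.65, and 0 of the table's array columns were left unused. Symbols came from the platform annotation, which gives 21218 of 35556 probe sets 1 symbol, 1881 several and 12457 none.

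No filter or further normalisation was applied. One model of 4 genotypes over 16 arrays was fitted with lmFit and eBayes of limma 3.58.1 (R 4.3.3), two-sided. Benjamini-Hochberg adjustment covered all 35556 probe sets in each comparison, at a threshold of 0.05; the 6 comparisons share arrays. A value after ± is the SE of a difference, or an SD where so marked. Lists are described by counts and medians, with no test. Named were all members past the threshold and, per role, the 4 with the smallest p of limma's F test over the genotypes. In other lists, up to 4 genes past the threshold, or up to 2 with the smallest p, were named; genes outside these rules (among them Cdc6, Mcm6, Mki67, Birc5 and Cdc20) were chosen after their values were seen, as were the promoters of Mcm7 and Kif23.

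The number of arrays limits the precision. Alternatives were an intensity trend with robust prior, 2-group fits, a filter on dim probe sets, renormalisation, median centring, array weights, 1 probe set per gene, the letter in the array name as a random block, a replicate block, and leaving out each array. The figures used Python 3.11.15 and matplotlib 3.10.9.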

Additional observations from a re-analysis of the deposited data

Results flagged for a closer look

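Single arrays lay far from the other 3 of their genotype, by Dixon's 95% limit for 4 samples, in 5 of the genes named above and in 3 role means. IKKβ triple KO replicate 1 was the low one in Rrm1 (8.303, against 9.012 to 9.056), Cdk1 (6.409, against 7.456 to 7.503) and Aurka (6.721, against 7.476 to 7.573). The same array was low in the mean of G1 genes (7.823, against 8.319 to 8.362) and in the mean of S phase genes (7.151, against 7.816 to 7.897). TRAF2/Casp-8 KO replicate 4 was high in Kif23 (7.936, against 7.411 to 7.478) and in the mean of mitosis genes (7.966, against 7.417 to 7.456). RIPK3 triple KO replicate 1 was low in Tk1 (7.952, against 8.242 to 8.287). Over all 47 members and 4 genotypes, 18 of 188 groups held such an array (9.57%), against 5.84% of the groups of all genes. Chance flags about 1 in 20 groups.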

How the results depend on the processing

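No call turned its direction under an alternative. In TRAF2/Casp-8 KO against WT, the G1 median (−0.066) was 0.0057 without TRAF2/Casp-8 KO replicate 2 and 0.058 without WT replicate 4, and the S phase median (0.043) was −0.014 without WT replicate 1; no other role median changed sign under the alternatives run for it. Of members called, the count in TRAF2/Casp-8 KO against WT (1) was 0 with a replicate block and 0 to 1 with 1 array left out. The count in RIPK3 triple KO against WT (2) was 1 in a fit of only the 2 groups, 3 with 1 probe set per gene and with a replicate block (E2f8 added), and 1 to 2 with 1 array left out. The count in IKKβ triple KO against RIPK3 triple KO (7) was 1 in a fit of only the 2 groups, 13 with 1 probe set per gene, 14 with array weights, 11 with a replicate block and 1 to 38 with 1 array left out. In IKKβ triple KO against TRAF2/Casp-8 KO (0) it was 0 to 1 with 1 array left out, and 5 without IKKβ triple KO replicate 1 and TRAF2/Casp-8 KO replicate 4 together. The counts in RIPK3 triple KO against TRAF2/Casp-8 KO and in IKKβ triple KO against WT were 0 under every alternative run. The call of Ccnd1 in RIPK3 triple KO against WT and that of E2f1 in IKKβ triple KO against RIPK3 triple KO were kept under all 17 alternatives. Fits of 2 groups estimate the spread from fewer arrays, and 1 probe set per gene adjusts over fewer tests; for the other changes the cause was not tested. Replicate numbers were not taken as pairs, because in no comparison was every same-number correlation over 0.1. That cut cannot exclude a weaker pairing. The same-number correlations ran from 0.034 to 0.085 in IKKβ triple KO against RIPK3 triple KO, where 6 of 8 samples correlated best with their own number. In IKKβ triple KO against TRAF2/Casp-8 KO, 3 of 4 were over 0.1 (range −0.022 to 0.11), and 3 of 8 samples correlated best with their own number. With 4 arrays a genotype, those that stand apart included, and a median spread of 0.34 within genotypes, differences of mitosis genes are the least precise.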
